A study of Mus musculus with 17 samples.

Results

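Newborn testes lacking both Pld6 and Dnmt3l (double knockout, DKO) were compared with wild-type (WT) testes by sequencing of poly(A)-selected RNA. The comparison held 3 DKO and 2 WT libraries, 5 of the 17 libraries of the series, and 23978 of the 23980 listed genes had a usable status in every newborn library. All were whole testes of C57BL6/J mice at postnatal day 0, with the mutant lines backcrossed to that strain. The labels call the libraries of a group biological replicates, and the sources used here do not say how many animals went into each. The Pld6 KO (4 libraries) and Dnmt3l KO (2 libraries) testes of the same age are shown beside them where a gene of interest calls for it. The question was which transcripts of the testis differ when the piRNA pathway and the methylation cofactor are lost together.

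Pld6 encodes an enzyme of the outer mitochondrial membrane that is needed to make PIWI-interacting RNAs (piRNAs), the small RNAs that guide germ cells to silence retrotransposons. Dnmt3l encodes a catalytically inactive partner of the de novo DNA methyltransferases, which methylate retrotransposons and paternally imprinted regions in fetal male germ cells. LINE-1 (L1) elements are retrotransposons that move by copying their own RNA, and L1Md_A is one of their young mouse subfamilies. At birth the germ cells of the testis are prospermatogonia, surrounded by Sertoli cells inside the cords and by Leydig, peritubular myoid, vascular and immune cells outside them.

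Levels are given as CPM, fragment counts per 1e6 fragments of the effective library size, and differences as log2 fold changes (DKO minus WT) with standard error (SE). Total counts were 11653201 and 11846972 in WT, and 9900346, 13344285 and 23498968 in DKO, so the third DKO library was the deepest. A whole testis is a mixture of cells, in which fewer cells of a type and less RNA per cell cannot be told apart. edgeR's quasi-likelihood test was applied to 15901 genes, and 2 of them differed by more than 2-fold with an adjusted p (Benjamini-Hochberg, here FDR) below 0.05. They were 4930470H14Rik, higher in DKO, and Pld6, lower (0.00629% of all genes in each direction). At an unadjusted p under 0.05 there were 1268 genes (7.97%), 817 higher (5.14%) and 451 lower (2.84%). With an offset for GC content and length that split became 681 higher and 895 lower, so which direction held more genes depended on the scaling. The shares of 5.14% and 2.84% are the background for each count of list members at that threshold below. Every DKO library lay above both WT libraries for 15.7% of genes and below both for 13.4%, which is the background for each such statement below. Genes over 2-fold apart without overlap made up 4.01% on the higher side and 0.635% on the lower side. When the 5 libraries were fitted without the single mutants, 102 genes were called (89 higher, 13 lower), and the DESeq2 Wald test called 61 (53 higher, 8 lower), with both genes above among them in each case. Pld6 was not called when any 1 of the 5 libraries was left out (FDR = 0.0662 to 0.155), nor 4930470H14Rik when either WT library was (FDR = 0.155 and 0.0903), and without WT replicate 2 the number of genes at an unadjusted p under 0.05 was 623 in place of 1268.

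**Figure D1:**
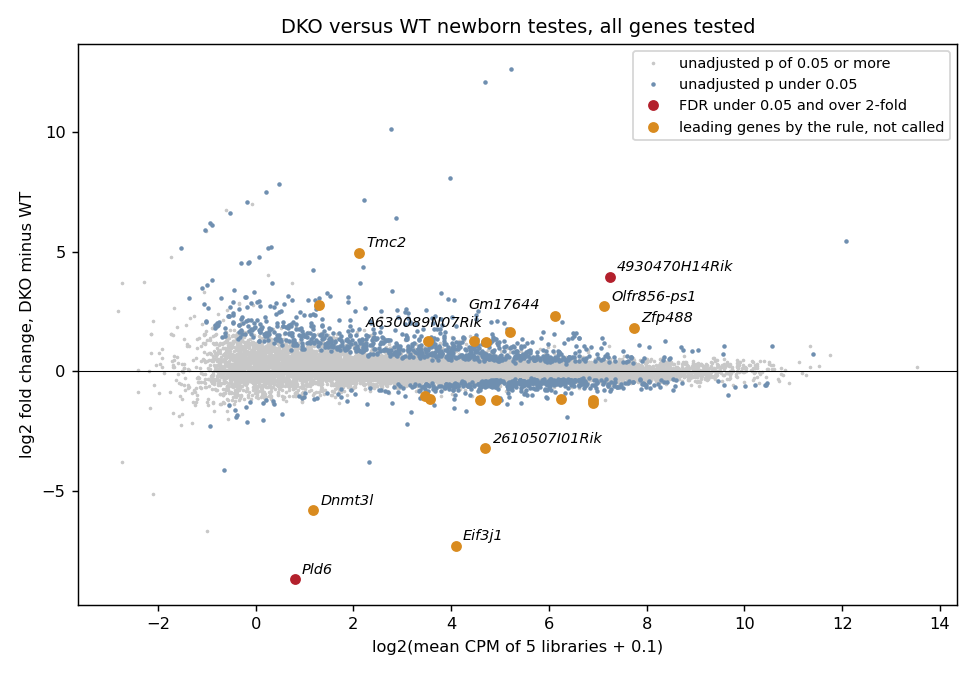
Log2 fold change (DKO minus WT, vertical) against log2 of the mean CPM of the 5 libraries plus 0.1 (horizontal) for the 15901 genes tested, 1 point a gene. The 2 called genes, 4930470H14Rik and Pld6, are drawn in red, Dnmt3l and the leading genes that were not called in orange, and genes at an unadjusted p under 0.05 in blue.

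The targeted genes followed their labels. Pld6 (chromosome 11, 59783893 to 59787657 in GRCm38) had 57 and 40 fragments in WT and 0 in each of the 3 DKO libraries. It was 4.84 and 3.36 CPM in WT, at least 18.3-fold lower in DKO when set against 3 counts per library (FDR = 0.0299), and 0 to 0.201 CPM in the 4 Pld6 KO libraries. Dnmt3l (chromosome 10, 78042287 to 78063622) had 53 and 72 fragments in WT and 1, 0 and 3 in DKO, at least 23.5-fold lower, without passing the adjusted test (FDR = 0.244). The same gene was 0.175 and 0.0868 CPM in Dnmt3l KO, and it spread from 0.495 to 14.6 CPM over the 4 Pld6 KO libraries. Of the letter patterns looked for on both strands of the 2 RefSeq promoter windows of Pld6 (GRCm38.p6), GGGCGG was in both, CCAAT in 1 and TATAAA in neither. Over the 32851 promoter windows of the table, 35.7% held GGGCGG, 37.4% CCAAT and 13.6% TATAAA, and the windows of Pld6 held 25 and 18 CG dinucleotides against a median of 7.

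The gene with the smallest p was a long noncoding RNA whose first exon holds L1 sequence. 4930470H14Rik is a 4-exon lncRNA gene on chromosome 17 (4044658 to 4082995, minus strand, GRCm38). Its first exon (4081830 to 4082995, 1166 bases) matched 10 of the 12 primers that the study designed for L1Md_A, both primers of 5 of the 6 amplicons, without a mismatch. All 10 lay between bases 304 and 868 of the 1734-base GENCODE M21 transcript, with the forward primers on its opposite strand, so the transcript runs antisense to the L1 unit. The unconverted L1Md_A bisulfite amplicon matched it over 123 bases at 99.2% identity, also on the opposite strand. The primers of 2 amplicons are shown first, and then the stretch of exon 1 (chr17:4082419-4082692, minus strand, 5′ to 3′) that holds the sites of amplicons 2 to 5. They are printed because they tie the called gene to the retrotransposon. In the exon, capitals mark the bases covered by primer sites, 126 of 274.
L1Md_A amplicon 1 forward: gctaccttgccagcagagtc
L1Md_A amplicon 1 reverse: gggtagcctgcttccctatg
L1Md_A amplicon 2 forward: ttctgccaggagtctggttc
L1Md_A amplicon 2 reverse: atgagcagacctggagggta
4930470H14Rik exon 1: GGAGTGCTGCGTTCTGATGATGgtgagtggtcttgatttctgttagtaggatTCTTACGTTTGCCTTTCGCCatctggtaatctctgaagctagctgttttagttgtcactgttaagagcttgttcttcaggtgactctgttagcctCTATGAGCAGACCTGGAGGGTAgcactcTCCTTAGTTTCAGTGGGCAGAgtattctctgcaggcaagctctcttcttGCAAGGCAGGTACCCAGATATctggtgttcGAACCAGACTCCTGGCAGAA

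The level of 4930470H14Rik was 15.5 and 15.9 CPM in the WT libraries and 303, 148 and 274 CPM in the DKO libraries. All 3 DKO libraries stood far above both WT libraries, which differed from each other by less than 1 CPM. The log2 fold change was 3.95 ± 0.44 (SE), 15.4-fold, with an FDR of 0.00717. In Pld6 KO testes the level was 98.4 to 302 CPM (log2 fold change against WT 3.64, FDR = 0.0128) and in Dnmt3l KO testes 26.0 and 32.2 CPM (0.89, FDR = 0.395). The difference of DKO from Pld6 KO was 0.31 ± 0.30 (FDR = 0.883), and DKO was higher than Dnmt3l KO by 3.06 ± 0.42 (FDR = 0.0240). Across all genes, no gene was called between DKO and Pld6 KO and 12 between DKO and Dnmt3l KO, 8 higher (0.0503%) and 4 lower (0.0252%). Because the element is repeated in the genome, fragments of other L1 copies and fragments of this gene cannot be told apart in a table of gene counts, and the sources used here do not say whether the counting used the strand.

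Other transcripts that share sequence with this lncRNA were looked up after its values were seen. At least 500 aligned bases of at least 80% identity were found in transcripts of 47 genes, of which 6 passed the filter on low counts. Of these 6, 3 were higher at an unadjusted p under 0.05 and 0 lower, where 5.06% of the 15129 tested genes with a GENCODE transcript were higher. Gm17644, an lncRNA gene on chromosome 1, shared 607 bases at 80.2% identity on the same strand. Its level was 20.6 CPM in each WT library and 155, 79.8 and 73.6 CPM in DKO (2.31 ± 0.39, FDR = 0.0976). A630089N07Rik, an lncRNA gene on chromosome 16, shared 582 bases at 87.3% identity on the opposite strand, and its level was 15.1 and 17.4 CPM in WT against 72.1, 31.8 and 48.3 CPM in DKO (1.64 ± 0.30, FDR = 0.140). F830016B08Rik shared 726 bases at 84.6% identity, also on the opposite strand. Its level was low, at 0.850 and 0.336 CPM in WT (10 and 4 fragments) and 2.35, 2.43 and 1.84 CPM in DKO (1.87 ± 0.64, FDR = 0.447). F830016B08Rik passed the filter on low counts only with the help of libraries other than WT, which favours the higher side. For all 3 genes the DKO and WT libraries did not overlap. Slfn3, Ift80 and Gm10033, the other 3 with such a match, had log2 fold changes of 0.75, -0.23 and 0.24.

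**Figure D2:**
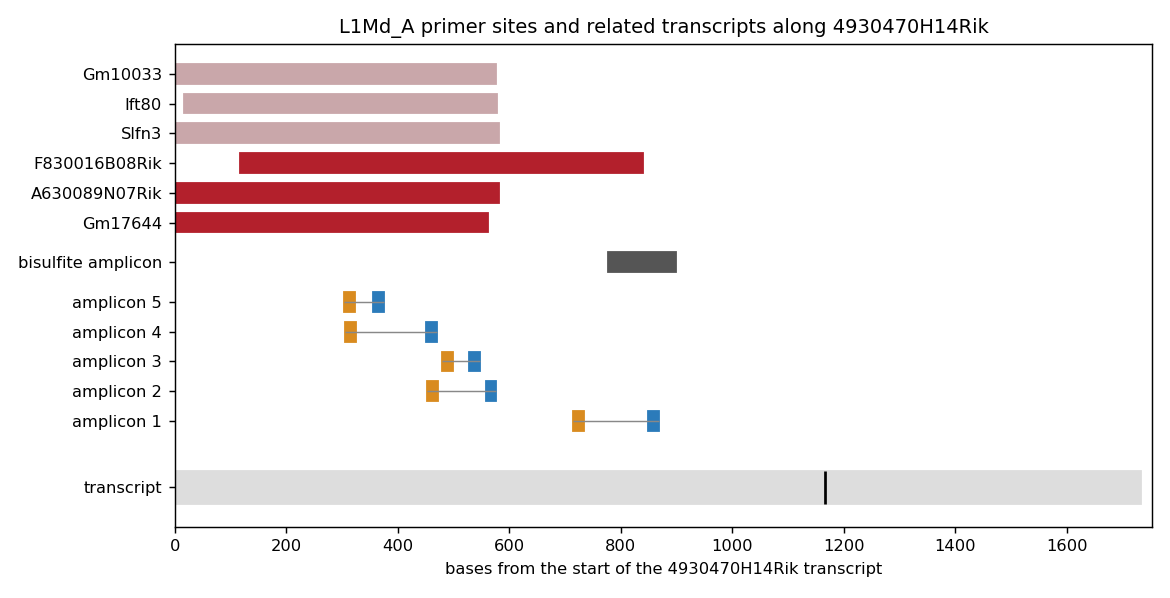
Positions along the 4930470H14Rik transcript, in bases from its start, of the L1Md_A primers (forward blue, reverse orange, joined per amplicon), the L1Md_A bisulfite amplicon (dark grey) and the stretches shared with the 6 tested genes. Genes at an unadjusted p under 0.05 (Gm17644, A630089N07Rik and F830016B08Rik) are red, the others pale, and the vertical line in the transcript marks the end of exon 1.

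Another lookup used matches of at least 100 aligned bases at 90% identity. With the lncRNA as query it gave 5 tested genes besides itself, of which 1 was higher at an unadjusted p under 0.05 (Sycp1) and 0 lower, with a median log2 fold change of 0.35. The L1Md_A bisulfite amplicon gave 4 tested genes, of which 4930470H14Rik itself was the 1 on the higher side. The bisulfite amplicons of the study's other elements were searched with the same limits. Of 7 tested genes that matched the RLTR10C-MMERVK10C amplicon, a long terminal repeat (LTR) of an endogenous retrovirus, 3 were higher at an unadjusted p under 0.05 and 0 lower, with a median log2 fold change of 1.02. These 3 were Cd209c, a lectin receptor gene (7.82 and 9.07 CPM in WT, 23.6, 18.3 and 14.96 CPM in DKO), Kcnq1ot1 and Olfr1372-ps1. Their matches covered 285, 128 and 125 bases. Of 27 genes that matched MT2-MERVL, 5 were higher (18.5%) and 0 lower, where 5.06% of tested genes with a GENCODE transcript were higher. Those 5 aligned over 111 to 389 bases. Of 14 that matched IAPLTR1_MM, 0 were higher and 1 lower, and of 6 each that matched RLTR4 or RLTRETN_Mm, none was in either direction at that threshold.

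The other leading genes with higher levels in DKO were a mixed group. The rule took the 10 genes with the smallest p among those over 2-fold whose groups did not overlap and whose DKO mean was at least 50 counts, a condition that 281 genes met. Olfr856-ps1, a transcribed olfactory receptor pseudogene on chromosome 9, was 37.5 and 26.3 CPM in WT and 299, 134 and 202.5 CPM in DKO (2.73 ± 0.41, FDR = 0.0643). This was the smallest FDR that missed the threshold. Zfp488, which encodes a zinc finger transcription factor, was 91.8 and 77.5 CPM in WT and 488, 198 and 210 CPM in DKO (1.82 ± 0.37). The lncRNA Gm2373 was 0.595 and 0.420 CPM in WT and 4.91, 2.35 and 3.44 CPM in DKO (2.78 ± 0.52).

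Tmc2, which encodes a channel subunit of sensory hair cells, had 2 and 3 fragments in WT and 70, 99 and 138 in DKO, at least 27.3-fold higher against 3 counts per library. Papln, encoding an extracellular matrix protein, Gata2, a transcription factor gene, and Cpne8, a copine gene, were each 2.36-fold to 2.39-fold higher. Gata2 was 6.29 and 6.13 CPM in WT and 11.9, 13.3 and 19.03 CPM in DKO. In the single mutants these genes did not follow 1 order. Olfr856-ps1 was 135 to 334 CPM in the Pld6 KO libraries and 51.7 and 39.4 CPM in the Dnmt3l KO libraries. Gata2 was 7.19 to 9.58 CPM and 6.31 and 6.16 CPM in the same libraries. Noncoding classes held more such genes, since 8.87% of 586 lncRNA genes and 10.6% of 151 pseudogenes were over 2-fold higher without overlap, against 3.74% of 15097 protein-coding genes. The noncoding classes were also lower in level, with a median log2 mean CPM of 1.30 for lncRNA and 4.78 for protein-coding genes, and the part of level in this difference was not tested.

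**Figure D3:**
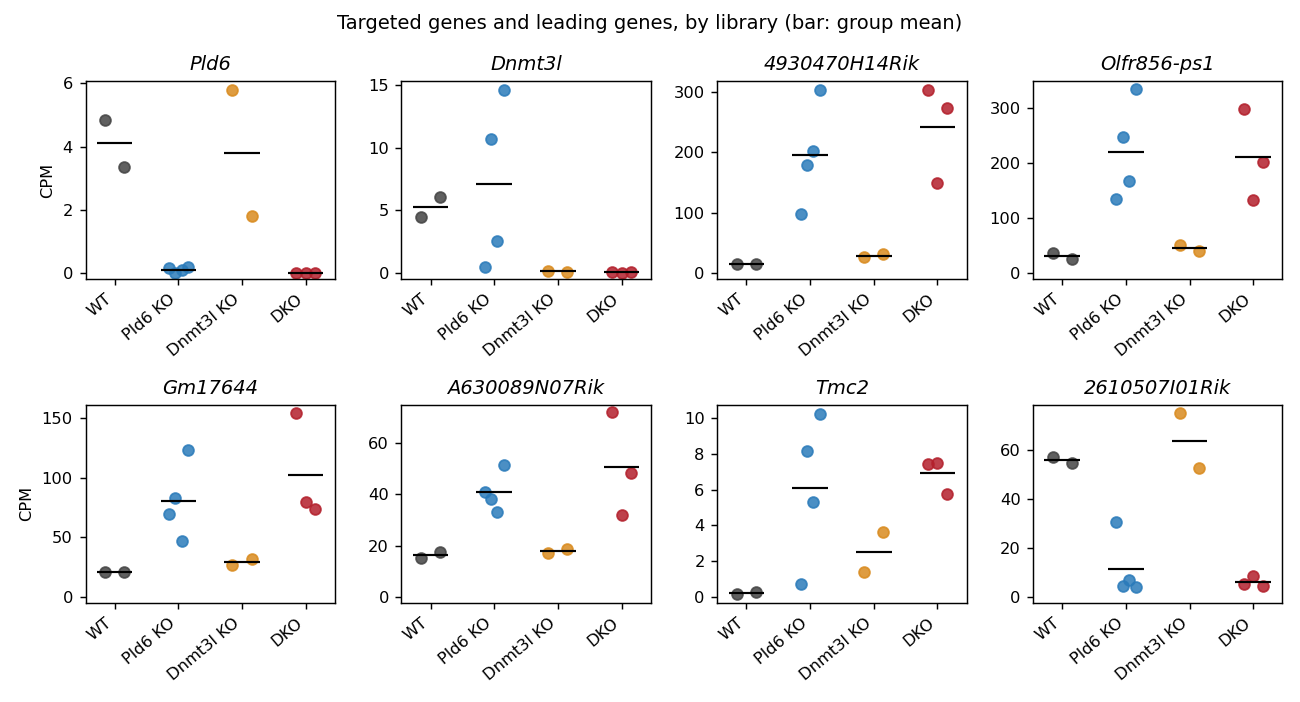
Level (CPM, linear axes from 0) of the targeted genes and 6 leading genes in each of the 11 newborn libraries, 1 point a library, with a bar at the group mean. Pld6 is near 0 in Pld6 KO and DKO, Dnmt3l is near 0 in Dnmt3l KO and DKO, and 4930470H14Rik is between 148 and 303 CPM in the 3 DKO libraries against 15.5 and 15.9 CPM in WT.

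Fewer genes met the same rule in the other direction (34 genes), and 10 were named. The lncRNA 2610507I01Rik was 56.9 and 54.6 CPM in WT and 5.33, 8.34 and 4.48 CPM in DKO (-3.21 ± 0.66, FDR = 0.244). It lies on chromosome 11 at 59197793 to 59202431, 581 kb from Pld6. The Pld6 KO libraries held 3.82 to 30.4 CPM and the Dnmt3l KO libraries 74.8 and 52.4 CPM. Every library that lacks Pld6 was thus below all those that carry it, though by unlike amounts. Loss of Pld6 and DNA carried along with its targeted allele cannot be told apart here, and neither was tested. Within 500 kb of Pld6, 18 genes were tested, of which 0 were higher and 1 lower at an unadjusted p under 0.05 (Jmjd4, 28.04 and 32.9 CPM in WT, 20.8, 22.8 and 24.4 CPM in DKO). Within the same distance of Dnmt3l, 17 genes were tested and none was on either side, and 4930470H14Rik had 1 tested neighbour, which was on neither side.

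Elovl2, an enzyme gene of very long polyunsaturated fatty acid synthesis, was 168 and 205 CPM in WT and 74.0, 67.5 and 83.7 CPM in DKO (-1.31 ± 0.31). Chst11, a chondroitin sulfotransferase gene, was 53.4 and 37.8 CPM in WT and 21.9, 18.4 and 20.03 CPM in DKO. Spp1, encoding the secreted protein osteopontin, was 93.5 and 131 CPM in WT and 59.3, 54.7 and 38.6 CPM in DKO. Plin1, which encodes a lipid droplet protein, Tox, a transcription factor gene, and Atp10d had log2 fold changes of -1.02, -1.17 and -1.22. None of these passed the adjusted test, with FDR from 0.254 to 0.388.

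Near-identical copies carried the remaining 2. Eif3j1, a translation initiation factor gene, was 83.9 CPM in WT replicate 1 but 0.336 in WT replicate 2, and 0.213 to 0.293 in DKO, and without WT replicate 1 its log2 fold change was -0.41 in place of -7.30. Its copy Eif3j2 was 7.14 and 76.7 CPM in WT, and the sum of both genes was 91.0 and 77.1 CPM in WT and 85.6, 81.7 and 94.5 CPM in DKO. Atp6v0c, a subunit gene of the vacuolar proton pump, was 167 and 195 CPM in WT and 67.5, 107 and 61.8 CPM in DKO, while its pseudogene Atp6v0c-ps2 was 0 in both WT and 67.2, 60.5 and 59.2 CPM in DKO. Summed, the pair was 181 ± 19.9 CPM (SD, n = 2) in WT and 141 ± 23.9 CPM (SD, n = 3) in DKO, and the groups overlapped. The division of fragments between such copies was made upstream, so the single values of these genes are uncertain.

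Interferon-stimulated genes, which cells switch on after sensing foreign or unusual nucleic acid, formed a list of 28 genes, of which 27 passed the filter. Of these, 0 were called, 11 were higher at an unadjusted p under 0.05 and 0 lower (background 5.14% and 2.84%), and the median log2 fold change was 0.69 against 0.01 over all genes. Xaf1, which antagonizes inhibitors of apoptosis, was 3.14 and 2.60 CPM in WT and 26.8, 27.7 and 16.01 CPM in DKO (3.02 ± 0.70, FDR = 0.341). Bst2, which encodes the virus-tethering protein tetherin, was 24.6 and 22.2 CPM in WT and 53.3, 45.9 and 37.9 CPM in DKO (0.96 ± 0.27, FDR = 0.392). Ifi44 was 0.765 and 0.504 CPM in WT and 5.44, 2.12 and 2.35 CPM in DKO. It passed the filter on low counts only through libraries other than WT, which favours the higher side. Oasl2, an oligoadenylate synthetase-like gene, was 12.7 and 6.13 CPM in WT and 33.0, 20.9 and 21.8 CPM in DKO.

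The other 7 members at that threshold were Irf9, Isg15, Ifit1, Dhx58, Irf7, Ifih1 and Ifit3, with log2 fold changes of 0.60 to 2.20. In each of the 11 genes every DKO library lay above both WT libraries. Usp18, Cmpk2 and Ifit2, also induced by interferon and named after their values were seen, had log2 fold changes of 0.04, 0.01 and 0.02. The list's summed level was 269 and 265 CPM in WT and 415, 355 and 312 CPM in DKO. Against the same WT libraries, its median was 0.20 for the Pld6 KO and 1.11 for the Dnmt3l KO testes. The number of members at an unadjusted p under 0.05 was 5 without DKO replicate 1 and 3 without WT replicate 2, and the median ran from 0.43 to 0.75 over the 5 fits that left out 1 library. Over the 13 members with a mean of at least 50 counts it was 0.23.

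**Figure D4:**
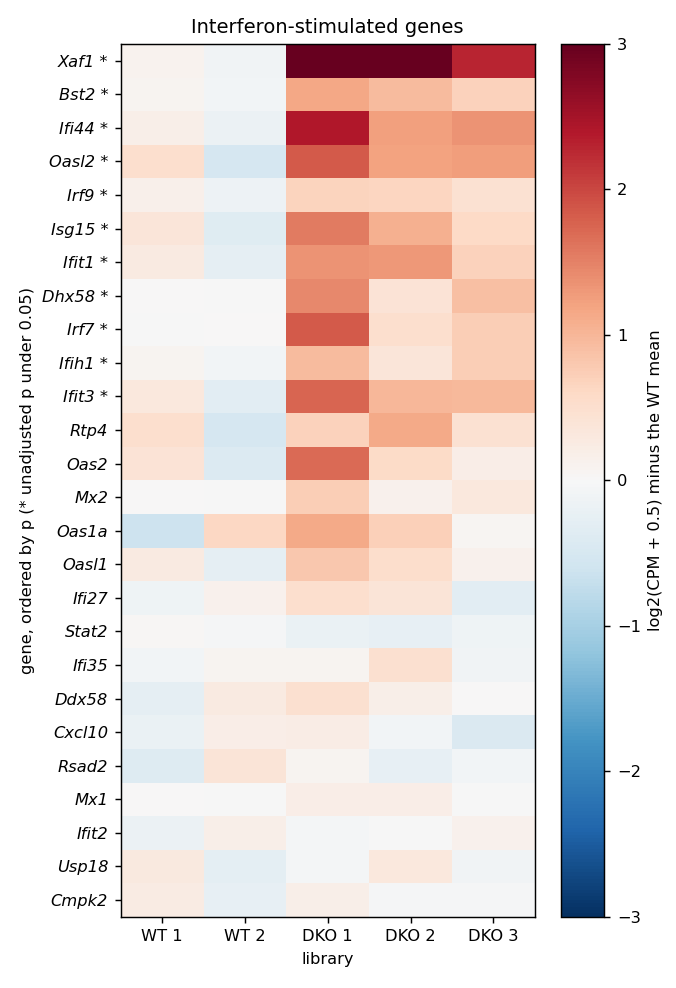
Heat map of the tested interferon-stimulated genes, 1 of which is not shown (rows, ordered by p) in the 2 WT and 3 DKO libraries (columns). Colour gives log2(CPM + 0.5) minus the WT mean, red above and blue below with the scale ending at 3, and an asterisk marks the 11 genes at an unadjusted p under 0.05, all of which are red in each DKO library.

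Genes lying near an activated retrotransposon copy were taken from the study, which chose them in spermatocyte libraries of the single mutants and not in the newborn libraries. Of 22 L1-linked genes 17 passed the filter, of which 5 were higher at an unadjusted p under 0.05 and 0 lower, with a median log2 fold change of 0.37. The genes at that threshold were Pamr1, Caps2, Pkhd1, Alox5 and Sntb1. Pamr1, encoding a secreted protease-like protein, was 4.16 and 8.56 CPM in WT and 21.8, 27.0 and 23.1 CPM in DKO (1.91 ± 0.46, FDR = 0.341). Alox5, encoding the leukotriene-producing lipoxygenase, was 0.680 and 0.588 CPM in WT and 1.49, 2.05 and 1.30 CPM in DKO. Without WT replicate 1 the list held 1 such gene, and without WT replicate 2 it held 2, while the median was 0.21 and 0.55.

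Of 17 LTR-linked genes 11 passed, with 5 higher, 0 lower and a median of 0.29. Members near 0 in WT, such as Apoh, passed the filter only through libraries where they were higher, which favours the higher side. At most 3 counts in every library of WT or of DKO were held by 3 of these 11 genes. The same held for 2 of the 17 tested L1-linked genes. Apoh, a plasma glycoprotein gene normally active in liver, had 0 fragments in both WT libraries and 10, 27 and 51 in DKO, at least 6.91-fold higher against 3 counts per library (FDR = 0.0976). The Pld6 KO libraries held 2 to 6 fragments and the Dnmt3l KO libraries 9 and 21. Tmc2, described above, Capn11, a germ cell calpain gene, Olfr1372-ps1 and Cdh19 were the other 4. Capn11 was 0.595 and 0.336 CPM in WT and 7.68, 0.682 and 4.48 CPM in DKO, so the second DKO library was close to WT. The list held 3 genes at that threshold without WT replicate 2 or DKO replicate 2, its median was 0.88 without WT replicate 1, and 1 of the 7 members with a mean of at least 50 counts was at the threshold (median 0.12).

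**Figure D5:**
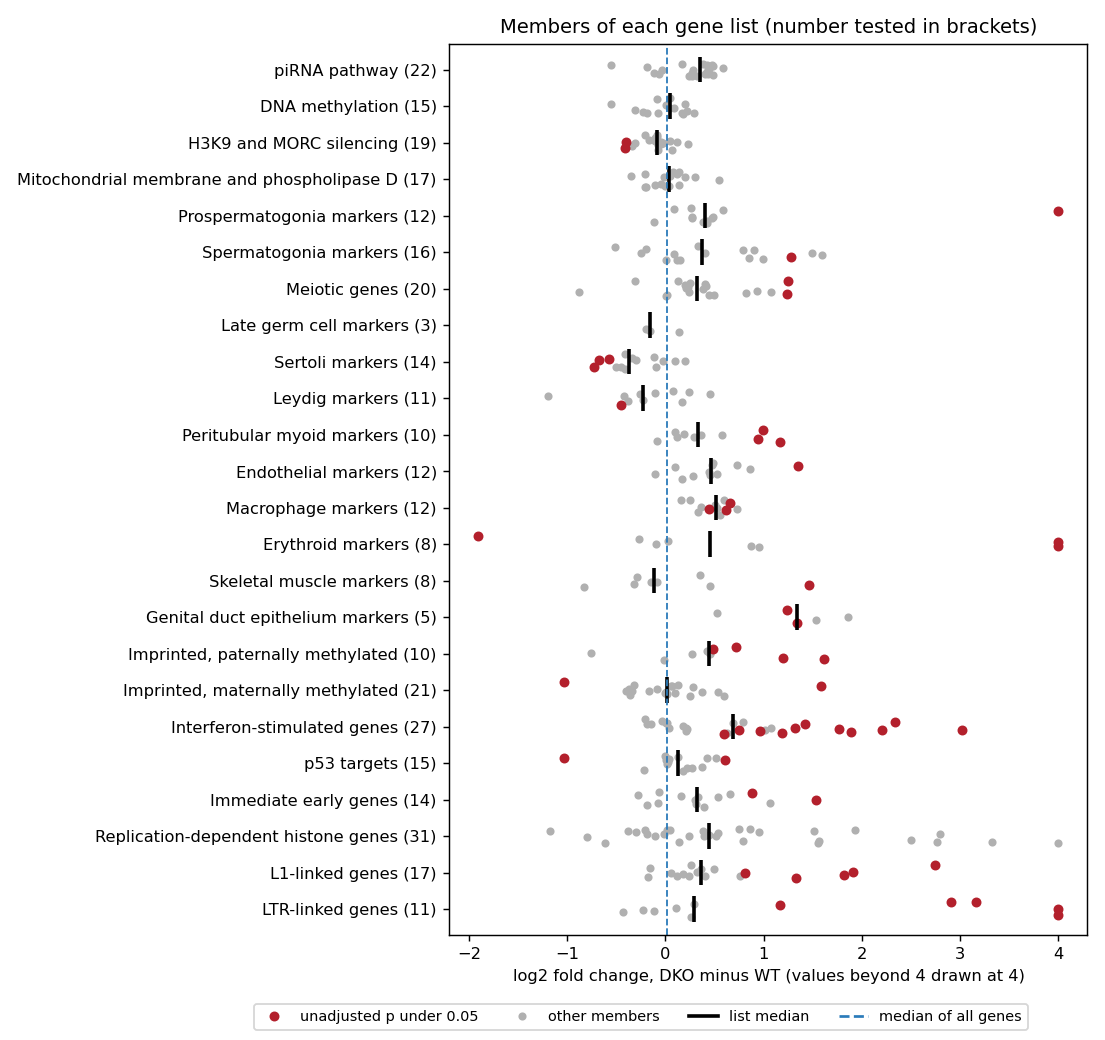
Log2 fold change (DKO minus WT) of each tested member of the 24 gene lists, 1 point a gene, with the list median as a black bar and the median of all genes as a dashed line, values beyond 4 being drawn at 4. Members at an unadjusted p under 0.05 are red. The interferon list holds 11 of them, all to the right, and the 3 of the Sertoli list are to the left.

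Lists of genes in the pathways that the 2 mutations interrupt held few members past the threshold. Pld6 and Dnmt3l themselves, described above, were not members of these lists. Of 22 tested piRNA pathway genes 0 were at an unadjusted p under 0.05 in either direction, with a median of 0.35. That median was 0.10 without DKO replicate 1, 0.20 without WT replicate 2, 0.21 without DKO replicate 3 and 0.56 without DKO replicate 2. Tex15, needed for piRNA-directed methylation, was 83.1 and 91.7 CPM in WT and 121, 106 and 137 CPM in DKO, and the germ cell helicase gene Ddx4 was 60.8 and 42.1 CPM against 75.2, 40.6 and 90.7 CPM. Of 15 tested DNA methylation genes 0 were at that threshold, with a median of 0.04. Uhrf1, which brings the maintenance methyltransferase to replicated DNA, was 169 and 168 CPM in WT and 124, 84.5 and 136 CPM in DKO (-0.55 ± 0.27). Of 19 H3K9 methylation and MORC genes, 0 were higher and 2 lower (median -0.09). These were the H3K9 methyltransferase gene Suv39h1 (73.3 and 77.2 CPM in WT, 63.4, 53.6 and 52.7 CPM in DKO) and Prmt5, an arginine methyltransferase gene. With any 1 library left out 1 of the 19 was at that threshold, except without WT replicate 2, where none was, and the median ran from -0.20 to -0.02. None of 17 mitochondrial membrane and phospholipase D genes was at that threshold, with a median of 0.03. The medians of the methylation and mitochondrial lists were -0.15 and -0.01 with the offset for GC content and length.

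Imprinted genes keep 1 parental copy silent, and those controlled by paternal methylation depend on Dnmt3l in male germ cells. Of the 10 genes listed in this class 4 were higher at an unadjusted p under 0.05 and 0 lower (median 0.45). Which cells of the testis gave their RNA, and whether their methylation or imprinting differed, was not tested. Rasgrf1 lay on the other side, at 7.82 and 4.45 CPM in WT and 3.52, 3.11 and 4.19 CPM in DKO. Against the same WT libraries the list's median was -0.05 for the Dnmt3l KO and 0.44 for the Pld6 KO testes. Dio3, encoding a thyroid hormone-inactivating enzyme, was 0.510 and 0.420 CPM in WT and 1.49, 1.36 and 1.47 CPM in DKO (1.61 ± 0.48, FDR = 0.408). Zdbf2 was 72.9 and 62.2 CPM in WT and 96.0, 94.0 and 94.0 CPM in DKO. The growth factor gene Igf2 was 484 and 605 CPM in WT and 776, 1018 and 887 CPM in DKO, and Rtl1, a retrotransposon-derived gene needed in placenta, 3.57 and 3.11 CPM against 13.1, 6.29 and 3.94 CPM. Without any 1 library the list held 2 or 3 such genes, with a median of 0.39 to 0.50. Of 21 genes under maternal methylation 1 was higher and 1 lower, with a median of 0.01, which was -0.12 without WT replicate 1 and -0.06 with the offset. Kcnq1ot1, the lncRNA of the Kcnq1 domain, was 42.5 and 39.5 CPM in WT and 171, 124 and 74.3 CPM in DKO (1.58 ± 0.49, FDR = 0.410), and Nap1l5 was 2.38 and 2.69 CPM against 1.17, 1.06 and 1.43 CPM.

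Cell type markers were read to see which cells the libraries held. The labelled tissue was borne out by the Sertoli gene Amh (566 and 400 CPM in WT, 736, 222 and 377 CPM in DKO), the Leydig gene Cyp17a1 and the germ cell genes Ddx4 and Dazl. Of 15 late germ cell markers only 3 passed the filter, and the protamine genes Prm1 and Prm2 were at 0 to 0.227 CPM in all 5 libraries. Germ cell markers differed among the DKO libraries. The summed level of 12 prospermatogonia markers was 371 and 305 CPM in WT and 513, 255 and 484 CPM in DKO, with DKO replicate 2 below both WT libraries and the others above.

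Of those 12 markers 1 was higher at an unadjusted p under 0.05 (8.33%, against 5.14% of all genes). Nanos2, an RNA-binding regulator of male germ cell fate, had 0 and 1 fragments in WT and 17, 11 and 66 in DKO, at least 7.12-fold higher against 3 counts per library (FDR = 0.244). It passed the filter on low counts only through libraries other than WT. Of 16 spermatogonia markers 1 was higher (6.25%), Lin28a, with 6.63 and 5.37 CPM in WT and 18.02, 5.99 and 19.7 CPM in DKO. Of 20 meiotic genes 2 were higher, Sycp1 of the synaptonemal complex (10.96 and 9.57 CPM in WT, 21.6, 19.3 and 31.4 CPM in DKO) and the meiotic cohesin gene Smc1b (19.1 and 8.48 CPM against 26.3, 19.7 and 51.7 CPM). Without WT replicate 2 none of the 20 was at that threshold, and their median was 0.16 in place of 0.32, while without WT replicate 1 it was 0.56. The prospermatogonia list held none without DKO replicate 1 or 3, where 11 of its members passed the filter and Nanos2 was no longer tested. The spermatogonia list held none without DKO replicate 1 or DKO replicate 3, and its median was 0.149 without WT replicate 2 in place of 0.367. A transcript of Sycp1 also shares 113 bases at 91.2% identity with 4930470H14Rik.

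Sertoli markers lay mostly on the lower side. Of 14, 0 were higher and 3 lower at an unadjusted p under 0.05, the median was -0.38, and the summed level was 5804 and 5568 CPM in WT and 4908, 4203 and 3861 CPM in DKO, without overlap. Inha, encoding the alpha subunit of inhibin, was 1106 and 1190 CPM in WT and 835, 796 and 526 CPM in DKO (-0.68 ± 0.22, FDR = 0.442). Fshr, the receptor for follicle-stimulating hormone, was 48.3 and 63.1 CPM in WT and 38.5, 40.3 and 33.7 CPM in DKO. Aard was the third. Against the same WT libraries the list's median was -0.32 for the Pld6 KO and -0.308 for the Dnmt3l KO testes. The summed level was 4792, 4738, 4805 and 4737 CPM in Pld6 KO and 4793 and 4086 CPM in Dnmt3l KO. Lower Sertoli levels were therefore not particular to DKO. Sox9 and Wt1, which specify the cell type, had log2 fold changes of 0.10 and 0.20. Without WT replicate 2 none of the 14 was at that threshold, although the median was -0.37, and with the offset for GC content and length 8 were.

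Of 11 Leydig markers 0 were higher and 1 lower (Fdxr, 173 and 219 CPM in WT, 152, 147 and 129 CPM in DKO), with a median of -0.23. The median was -0.02 with none at the threshold without WT replicate 2, -0.43 without WT replicate 1, and -0.44 with 4 lower without DKO replicate 1, and none was at the threshold without DKO replicate 3. The steroidogenic gene Cyp17a1 was 209 and 220 CPM in WT and 194, 52.99 and 36.04 CPM in DKO. Of 10 peritubular myoid markers 3 were higher and 0 lower (median 0.33), the contractile genes Lmod1, Tagln and Cnn1. Tagln was 67.5 and 91.7 CPM in WT and 199, 173 and 162 CPM in DKO. Of 12 macrophage markers 3 were higher and 0 lower (median 0.51), the complement genes C1qa and C1qb and the receptor gene Mrc1. Of 12 endothelial markers 1 was higher (Vwf, 8.33% against 5.14% of all genes, median 0.46). None of the 12 macrophage markers was at that threshold without WT replicate 1, DKO replicate 2 or DKO replicate 3, and none of the myoid markers without WT replicate 1. The endothelial list held none without WT replicate 2 or DKO replicate 1.

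Markers of tissue that may be dissected with the testis were read in the same way. Of 5 tested genital duct epithelium markers 2 were higher and 0 lower (median 1.34), Emx2 (4.42 and 4.28 CPM in WT, 7.46, 11.6 and 13.7 CPM in DKO) and Krt7. Against the same WT libraries their median was 0.988 for the Pld6 KO and 0.887 for the Dnmt3l KO testes. None of the 5 was at that threshold without WT replicate 2, and 1 was without WT replicate 1 or DKO replicate 3. Of 8 skeletal muscle markers 1 was higher and 0 lower (Tnnc2, median -0.12), none without WT replicate 2, DKO replicate 2 or DKO replicate 3, and the median was 0.94 without WT replicate 1. Of 8 erythroid markers 2 were higher and 1 lower, but these were the near-identical globin genes Hbb-bs, Hba-a2 and Hbb-b1. The summed beta-globin level was 428 and 447 CPM in WT and 326, 587 and 223 CPM in DKO. The sum of Hba-a1 and Hba-a2 was 4.928 and 4.198 CPM in WT and 5.545, 34.04 and 5.239 CPM in DKO. Hba-a2 had 442 fragments in DKO replicate 2 and 0 in the other WT and DKO libraries. Without WT replicate 1 or DKO replicate 2 none of the 8 was at that threshold. The part of such cells in the differences above was not tested.

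Of 15 p53 target genes 1 was higher and 1 lower (Trp53inp1 and Gdf15, median 0.12), with none higher without WT replicate 1 and none lower without WT replicate 2, DKO replicate 2 or DKO replicate 3. Of 14 immediate early genes 2 were higher and 0 lower, Fos (4.42 and 3.27 CPM in WT, 19.4, 7.505 and 6.87 CPM in DKO) and Cyr61, with DKO replicate 1 the highest in both. Without DKO replicate 1 or WT replicate 2 none of the 14 was at that threshold. Of 31 tested replication-dependent histone genes, whose RNA normally lacks a poly(A) tail, 0 were on either side.

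A technical measure that moved with the groups was the share of ribosomal RNA. The 45S pre-ribosomal RNA gene Rn45s, left out of the tests, took 0.114% and 0.104% of the fragments of the WT libraries and 4.43%, 0.981% and 0.318% of those of the DKO libraries. Lars2, a mitochondrial tRNA synthetase gene, and Mir6236, both named after their values were seen, had the same order of libraries within DKO. Among the genes above, Gm17644, Kcnq1ot1, Cd209c, Bst2, Fos and Rtl1 also had this order, while 4930470H14Rik, Olfr856-ps1 and Xaf1 did not. Of the 5 MT2-MERVL genes above, Arhgap8 did not have it and the others did. The interferon list had it in its summed level and in its median log2 difference from WT (0.733, 0.48 and 0.195). In that median the L1-linked list had it (0.468, 0.372 and 0.192), and the LTR-linked list had the reverse (0.253, 0.403 and 0.782). How many of all genes had this order was not counted. Lars2 was 198 and 121 CPM in WT and 18630, 1938 and 595 CPM in DKO. It was 7892, 2080, 218 and 6623 CPM in Pld6 KO and 1033 and 573 CPM in Dnmt3l KO. The part of ribosomal RNA in the differences above was not tested.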

How the data were processed

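Poly(A)-selected RNA of whole newborn testes was sequenced with a stranded kit as 100-bp paired reads. The authors aligned the reads to the mouse genome (mm10, the same build as GRCm38) with TopHat2 and deposited 1 Cuffdiff table for the newborn libraries, with full version numbers not given in the sources used here. It holds, per gene and library, estimated counts (raw fragments that the authors' program assigned to the gene, 97.7% of them whole numbers) and FPKM values that the authors' program normalised by library and gene length. The table numbers replicates from 0 and the labels from 1, and they were matched in that order of number.

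The estimated counts were rounded and tested with edgeR 4.0.16 in R 4.3.3 (filterByExpr, TMM scaling, quasi-likelihood test), with all 11 newborn libraries in 1 fit and the contrast DKO minus WT. Of 23980 genes, 2 without a usable status (Rn45s and Ss18) were left out. Calls needed a more than 2-fold difference and an adjusted p (FDR, by Benjamini and Hochberg) under 0.05. Standard errors are the log2 fold change divided by the square root of F. Where all libraries of a group held at most 3 counts, the fold is a bound against 3 counts per library, which covers counting error only. Printed p-values measure the spread between these libraries. DKO and WT libraries with the same number deviated from their group means with correlations of 0.047 and 0.167, over 2 pairs. On simulated counts for this comparison (15901 genes, 50 changed at each fold), 42% of 2-fold, 98% of 4-fold and 100% of 8-fold changes were recovered, with 7 false calls. The simulation gave each gene the spread typical of genes at its level, not its own. Only genes with a mean above 2 CPM were changed. These shares therefore do not cover genes at lower levels or with a larger spread, such as some named above.

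Named genes were the targeted and called genes, the 10 higher and 10 lower genes with the smallest p (fold over 2, no overlap, mean of at least 50 counts in the higher group), up to 4 members of each list by p, and the 2 highest of each marker list. The genes, lists and rules were chosen with earlier results of these data known. Alternatives were DESeq2 1.42.0, limma 3.58.1 on log2(FPKM + 1) and log2(FPKM + 0.1), other filters and scalings, a replicate block, leaving out each library and, chosen after seeing the data, an offset for GC content and length. Primers and amplicons from the study's supplement were matched to GENCODE M21 transcripts with BLAST 2.17.0. 1 member of the interferon list is counted but not reported here by name. RefSeq placed 15845 of the 15901 genes.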

Additional observations from a re-analysis of the deposited data

Results flagged for a closer look

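Rn45s, the 45S pre-ribosomal RNA gene, lay outside the tests because its status was not usable in every library. Its share of the fragments was above the 0.114% and 0.104% of the WT libraries in each DKO library, with 4.431% in DKO replicate 1, 0.9812% in replicate 2 and 0.3176% in replicate 3. In the Dnmt3l KO libraries it was 0.656% and 0.250%, and in the Pld6 KO libraries it was listed at 0 with a status that marks too many fragments to count. Poly(A) selection removes most ribosomal RNA, and the differences between groups in this share were not tested.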

How the results depend on the processing

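The 2 calls became 8 without a filter on low counts, 1 with a mean of at least 50 counts, 102 with the WT and DKO libraries alone, 61 with the DESeq2 Wald test, and 5 and 7 with limma on log2(FPKM + 1) and log2(FPKM + 0.1). With the replicate block there were 12, among them 4930470H14Rik but not Pld6 (FDR = 0.055), and the numbers were not shown to pair the libraries. Leaving out 1 library gave 1 to 3 calls, and 623 to 1162 genes at an unadjusted p under 0.05 in place of 1268, with the lone WT library then assumed to vary like the other groups. The cause of these changes was not tested, apart from the number of genes or libraries that the setting itself changes. The log2 fold change of 4930470H14Rik ran from 3.75 to 4.20 over those 5 fits. The offset for GC content and length, added after seeing the data, shifted the median of all genes from 0.014 to -0.062.

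Of 126 named genes under each alternative (1726 values), 1697 values kept their direction and 29 values in 12 genes, none of them called, did not. With the block Etv5 was -0.042, Cyp11a1 0.078 and Pecam1 0.014. With the GC and length offset Foxo1 was -0.016, Crisp2 -0.022 and Hbb-bt -0.193, and Hbb-bt was -0.049 with both limma settings. Over the fits without 1 library, Etv5 ran from -0.29 to 0.64, Foxo1 from -0.028 to 0.33, Hspa1l from -0.53 to 0.30, Ldhc from -0.59 to 0.28, Crisp2 from -0.87 to 5.28, Cyp11a1 from -0.44 to 0.06, Acta2 from -0.28 to 0.53, Pecam1 from -0.30 to 0.003, Hbb-bt from -0.44 to 0.56, Tnnt3 from -0.34 to 1.69, Myh8 from -0.958 to 0.94 and Cdh16 from -0.59 to 2.81. Of 336 list medians under the alternatives, 309 stayed within 1 SD of the DKO libraries. That SD was larger than the median itself in some lists, so staying within it is a weak check there. It was 0.48 against a median of 0.35 for the piRNA pathway and 0.60 against 0.37 for the spermatogonia markers.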
